A study of Homo sapiens with 10 samples.

Results

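DNA damage response and repair genes were followed through 5 groups of T47D breast cancer cells. Of 42 listed genes, 30 had a probe set matched to that gene symbol alone, and 45 probe sets stood for them among the 16376 analysed. The list was drawn by gene name from the main repair pathways, with earlier results of these data known. Counts of its genes beside shares of all probe sets are thus descriptive. BRCA2, RAD50, ATR, FANCA, XRCC5, PRKDC, PMS2, APEX1, PARP1, ERCC2, DDB1 and XPC were not analysed here. T47D is a luminal line grown from human breast cancer. T47D-Y is a subline that has lost the progesterone receptor, and both receptor-bearing lines were derived from it by stable transfection of an expression vector. PR-A is the shorter receptor isoform, and the PR-A K388R mutant carries arginine in place of the lysine to which the small modifier SUMO is joined. The 5 groups were PR-A K388R cells with 10 nM of the synthetic progestin R5020 for 24 h or with ethanol vehicle, WT PR-A cells with R5020 or vehicle in the same way, and T47D-Y cells with vehicle. Each group had 2 Affymetrix U133 Plus 2 arrays. Neither T47D-Y cells given R5020 nor PGR, the receptor gene itself, were analysed here. Each receptor form was present in 1 transfected line, so the mutation and the line cannot be told apart.

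Cells hold several repair systems that divide the kinds of DNA damage among them. Homologous recombination rebuilds a broken chromosome from its sister copy and runs only after replication, whereas end joining ligates the ends directly. Mismatch, base excision and nucleotide excision repair remove wrong or damaged bases from one strand and fill the gap. Sensor kinases and their partners detect breaks and stalled forks and hold the cell cycle, and many recombination genes are transcribed with the replication genes through E2F factors. In the breast, progestins act on epithelial proliferation, and several of these genes are known for inherited cancer risk.

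The promoter letters of 5 of the 7 listed genes called below are shown. ERCC1, whose window held none of the motifs searched, and FANCG are not printed. Each run is the 250 bases that end just before the gene's first-listed RefSeq start (GRCh38.p14), written 5′ to 3′ on the gene's own strand, and capitals mark a motif found on either strand. DDB2 lies at chr11:47214204-47214453 (+), TIMELESS at chr12:56449427-56449676 (-), EXO1 at chr1:241847954-241848203 (+), OGG1 at chr3:9749702-9749951 (+) and LIG4 at chr13:108218350-108218599 (-).
DDB2: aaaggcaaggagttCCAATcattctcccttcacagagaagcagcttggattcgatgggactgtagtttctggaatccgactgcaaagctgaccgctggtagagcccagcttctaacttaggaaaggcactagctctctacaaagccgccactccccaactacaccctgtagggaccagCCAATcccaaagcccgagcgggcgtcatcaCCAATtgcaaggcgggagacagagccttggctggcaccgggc
TIMELESS: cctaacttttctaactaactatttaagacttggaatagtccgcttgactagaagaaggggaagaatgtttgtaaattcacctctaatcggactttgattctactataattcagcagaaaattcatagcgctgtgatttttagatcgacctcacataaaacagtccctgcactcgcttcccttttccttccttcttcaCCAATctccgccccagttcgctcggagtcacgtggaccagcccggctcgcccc
EXO1: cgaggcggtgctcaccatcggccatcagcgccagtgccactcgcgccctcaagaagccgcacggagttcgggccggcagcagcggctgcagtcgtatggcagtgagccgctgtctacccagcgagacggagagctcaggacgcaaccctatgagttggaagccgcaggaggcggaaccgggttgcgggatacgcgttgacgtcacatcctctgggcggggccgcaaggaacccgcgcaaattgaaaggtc
OGG1: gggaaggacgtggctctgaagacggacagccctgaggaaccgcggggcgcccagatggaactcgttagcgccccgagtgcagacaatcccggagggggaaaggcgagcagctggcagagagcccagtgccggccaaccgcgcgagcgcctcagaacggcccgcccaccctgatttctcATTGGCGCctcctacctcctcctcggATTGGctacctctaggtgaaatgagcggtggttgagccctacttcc
LIG4: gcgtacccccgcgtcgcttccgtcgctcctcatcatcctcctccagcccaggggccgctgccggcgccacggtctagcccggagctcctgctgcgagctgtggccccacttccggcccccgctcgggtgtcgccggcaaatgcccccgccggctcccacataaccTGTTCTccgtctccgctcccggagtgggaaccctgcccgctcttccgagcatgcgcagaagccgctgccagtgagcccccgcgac

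Positions are counted back from -1, the base before the start. The DDB2 window held CCAAT (either strand) at -236 to -232, -72 to -68 and -42 to -38. TIMELESS held 1 such box at -53 to -49. OGG1 held CCAAT at -72 to -68 and -46 to -42, and an E2F core (TTCCCGC or TTGGCGC) at -71 to -65 overlapped the first of them. LIG4 held TGTTCT, the hexamer bound by steroid receptors, at -85 to -80, and EXO1 held none of the motifs searched. Over the 29 measured repair genes with a promoter in the table, the E2F core stood in 10, against 7.95% of 27303 promoters of the same length and 10.1% of the 6907 promoters of measured genes. CCAAT stood in 15 of 29, against 33% of all promoters. TGTTCT stood in 2 of 29, LIG4 and MSH3, against 12.4%. The full palindromic progesterone response element, which can contain that hexamer, stood in 0 of 29, against 0.33%. A match of letters is not a bound site, 12 of the measured repair genes have more than 1 start in that table, and only the first was searched.

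Values are given as log2 signal of a probe set, so that a difference of 1 is a doubling. Each gene was represented by its probe set with the highest mean over the 10 arrays. Array medians lay between 4.59 and 4.69. The repair genes were mostly bright: 28 of 30 had a mean at or above percentile 70 of all probe sets, RAD23B, a damage recognition partner, reached percentile 97.8, and below percentile 70 were the kinase ATM at 52.7 and PMS1, a mismatch repair subunit, at 19.9. The SD of the 2 arrays of a group had a median of 0.08 and a highest value of 0.35. Comparisons were made with limma over all 10 arrays, and a gene was called at a Benjamini-Hochberg adjusted p under 0.05 over all probe sets together with a fold of at least 1.5. The labels do not say that replicates 1 and 2 were separate cultures, so p measures only the spread between these samples. The replicate number had been removed from the deposited values, which makes these p-values too small. A second fit, blocked on that number, takes the removal into account, and its adjusted p is given as the blocked p where it ends a call. The mean of 7 luminal markers was 10.50 and 10.38 in R5020-treated PR-A K388R cells, against 10.71 and 10.63 with vehicle, 9.91 and 9.99 in R5020-treated WT PR-A cells, against 10.43 and 10.51 with vehicle, and 10.90 and 10.95 in T47D-Y cells. Of these markers KRT18 (0.62), KRT19 (1.54) and ESR1 (1.13) were called higher in PR-A K388R than in WT PR-A cells with R5020, and KRT19 (1.12) and ESR1 (0.92) with vehicle. At an unadjusted p under 0.05, 5 of the 7 were higher and 2 lower with R5020, against 18.5% and 14.1% of all probe sets. With vehicle 3 were higher and 3 lower, against 15.5% and 13.6%. The median difference over the 7 was 0.51 with R5020 and 0.07 with vehicle. Against T47D-Y, vehicle-treated PR-A K388R cells had TFF1 called lower (-0.83), and WT PR-A cells KRT19 (-0.89), ESR1 (-1.50) and TFF1 (-1.20). Of 3 basal markers, 2 were called higher and 0 lower in vehicle-treated WT PR-A cells against T47D-Y, also with the block. In PR-A K388R cells 0 of 3 were called. Over all probe sets 3.87% and 1.2% were called higher in these comparisons. R5020 called FOXA1 lower in PR-A K388R (-0.61; blocked adjusted p = 0.0698; lost without any 1 of the 4 arrays of that line, up to 0.176) and in WT PR-A cells (-1.46). Leaving out 1 array ended the vehicle call of ESR1 between the receptor lines in 1 of 10 cases and the R5020 call of KRT18 in 2 of 10. Their part in the values of the repair genes was not tested. The mean of 5 leukocyte markers lay between 4.11 and 4.33. Of 8 progestin targets measured, R5020 called 8 higher in PR-A K388R cells and 7 in the WT PR-A line.

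R5020 in PR-A K388R cells left every repair gene under the threshold for a call: 0 of 30 were called in either direction. Over all probe sets 1.19% were called higher and 0.562% lower. The log2 changes ran between -0.34 and 0.46, with a median of 0.09 against 0.00 for all probe sets, and 21 were positive. The genes of homologous recombination had positive changes throughout, 0.05 to 0.46 over 7 genes with a median of 0.35. BRCA1, which recruits the recombinase to breaks, had a log2 change of 0.46 (SE 0.11, adjusted p = 0.0559). CHEK1, the kinase that slows the cycle when forks stall, had 0.44 (SE 0.10, adjusted p = 0.055). CHEK1 had 0.47 by its other probe set (adjusted p = 0.0451; blocked adjusted p = 0.125). At an unadjusted p under 0.05, 9 genes were higher and 2 lower, against 8.54% and 6.55% of all probe sets. At any fold, 2 genes passed the adjusted p by their brightest probe set, both higher, against 1.83% of all probe sets. These were EXO1, an exonuclease that resects broken ends, and BLM, a helicase that undoes recombination intermediates. EXO1 changed by 0.43 (SE 0.09, adjusted p = 0.0481) and BLM by 0.41 (SE 0.09, adjusted p = 0.0445), and their blocked p was 0.142 and 0.145. Leaving out any 1 of the 10 arrays took both above 0.05 (0.0556 to 0.245 for EXO1, 0.0654 to 0.227 for BLM). The blocked fit, which called 1.4% of all probe sets, and contrasts without moderated variances also called 0 of 30. Both R5020 arrays lay above both vehicle arrays for 13 genes, where 22.6% of all probe sets and 25.6% of those outside the dimmest 40% did so. They lay below for 6 genes, where 20.1% of all and 21.2% of the brighter probe sets did so.

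BLM signal was 8.36 and 8.29 in R5020-treated PR-A K388R cells, against 7.84 and 7.99 with vehicle in that line. In R5020-treated WT PR-A cells it was 7.73 and 7.77, against 7.82 and 7.77 with vehicle, and T47D-Y cells had 7.86 and 7.79. The R5020-treated PR-A K388R arrays thus stood above the 8 others. BRCA1 signal was 9.09 and 9.28 in R5020-treated PR-A K388R cells, against 8.76 and 8.70 with vehicle. The WT PR-A line had BRCA1 at 8.64 and 8.69 with R5020 and 8.93 and 8.69 with vehicle, and T47D-Y cells had 8.67 and 8.73. Here too the treated mutant arrays were the highest. For 10 of 30 repair genes, each by its brightest probe set, both R5020-treated PR-A K388R arrays lay above all 8 others, namely ATM, BLM, BRCA1, CHEK1, DDB2, EXO1, FANCG, RAD51AP1, RAD51C and TIMELESS, against 7.18% of all probe sets and 7.5% of those outside the dimmest 40%. This count was chosen after the values were seen. In the excision pathways the changes in PR-A K388R cells had medians of 0.08 for base excision and -0.02 for nucleotide excision repair, and ERCC5, a nuclease that cuts beside the lesion, had the lowest value at -0.34.

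In WT PR-A cells the repair genes leaned the other way, and again 0 of 30 were called, against 3.71% of all probe sets called higher and 2.92% lower. The log2 changes ran between -0.55 and 0.17 with a median of -0.18, against -0.01 for all probe sets, and 25 of 30 were negative. Both R5020 arrays lay below both vehicle arrays for 19 genes, where 26.6% of all probe sets and 31.0% of the brighter ones did so. They lay above for 1 gene, where 23.6% of all and 27.1% of the brighter probe sets did so. At an unadjusted p under 0.05, 11 were lower and 0 higher, against 11.7% and 11% of all probe sets. At any fold 5 passed the adjusted p by their brightest probe set, all lower, against 5.17% of all probe sets. The blocked fit, which called 6.41% of all probe sets, called 0 of 30. Contrasts without moderated variances also called 0 of 30, and passed 6 at any fold.

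TIMELESS, a fork protection protein that supports checkpoint signalling, changed by -0.55 with R5020 in WT PR-A cells (SE 0.08, adjusted p = 0.00161, 1.46-fold). Its signal was 9.44 and 9.41 in R5020-treated WT PR-A cells, against 10.00 and 9.95 with vehicle. In PR-A K388R cells it was 10.11 and 10.14 with R5020 and 9.94 and 9.99 with vehicle, and in T47D-Y cells 9.89 and 9.90. Only the R5020-treated WT PR-A arrays were under 9.89. MPG, a glycosylase that removes alkylated bases, changed by -0.43 (SE 0.09, adjusted p = 0.0154). The others were ERCC3, a helicase subunit of TFIIH, at -0.40 (adjusted p = 0.0178), FANCG, a Fanconi anemia core protein, at -0.37 (adjusted p = 0.0268), and MRE11, the nuclease of the break sensor, at -0.36 (adjusted p = 0.0221). With the block TIMELESS and MPG still passed at any fold, at 0.0085 and 0.0479, against 3.74% of all probe sets, and ERCC3, FANCG and MRE11 did not, at 0.0582, 0.0812 and 0.077. Leaving out any 1 of the 4 WT PR-A arrays took ERCC3 and MRE11 above 0.05 (adjusted p up to 0.121 and 0.128). The same held for FANCG with 3 of those arrays, all but R5020 replicate 2 (up to 0.18), and for MPG with 3, all but vehicle replicate 2 (up to 0.117). TIMELESS passed without each of the 10 arrays (0.00322 to 0.0193). In 9 of 30 genes, each by its brightest probe set, both R5020-treated WT PR-A arrays lay below the 8 others, against 8.89% of all probe sets and 11.3% of the brighter ones.

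**Figure D1:**
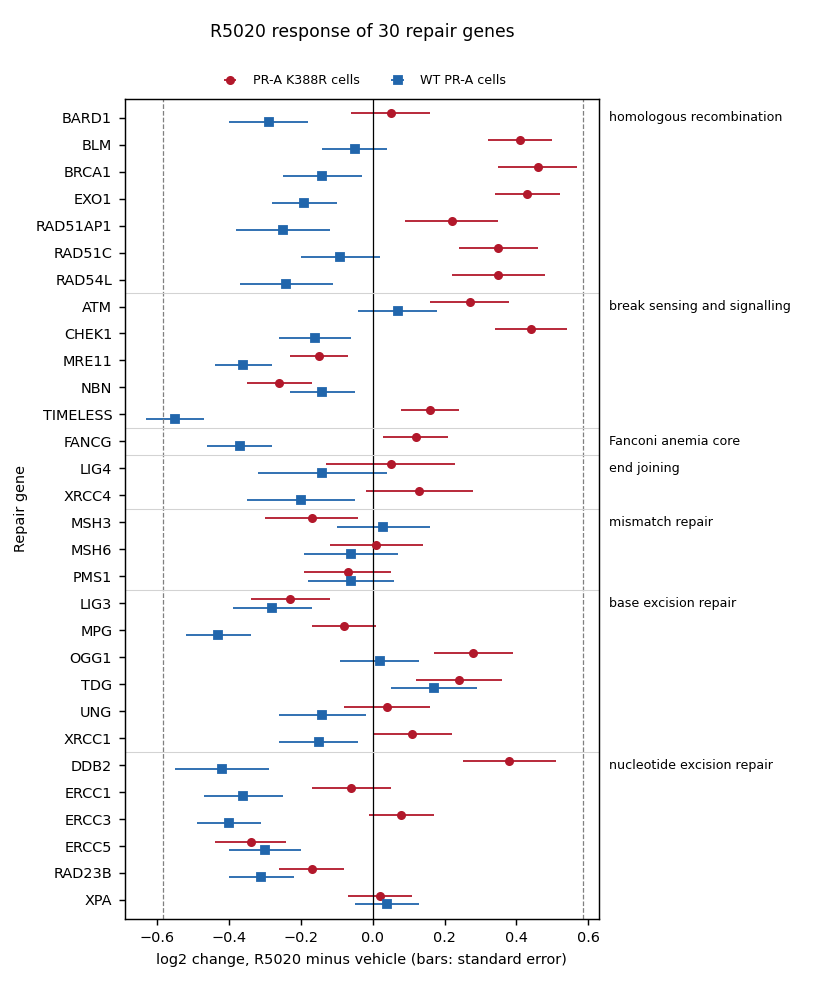
The log2 change with R5020 (horizontal axis, R5020 minus vehicle) of the 30 measured repair genes, grouped by role, in PR-A K388R cells (red circles) and WT PR-A cells (blue squares); bars are standard errors and dashed lines mark 1.5-fold. No point passes the dashed lines, 21 of 30 mutant points lie right of 0, and 25 of 30 WT points lie left of it.

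The difference between both responses, PR-A K388R minus WT PR-A, was tested in the same fit. It was called for 3 of 30 repair genes, all higher, against 1.45% of all probe sets higher and 1.76% lower. These were DDB2 at 0.80 (SE 0.18, adjusted p = 0.0441), TIMELESS at 0.71 (SE 0.11, adjusted p = 0.0117) and EXO1 at 0.63 (SE 0.13, adjusted p = 0.0387). Blocked on the replicate number, 0 of 30 were called, where 0.519% of all probe sets were called higher, and the blocked p was 0.0984 for DDB2, 0.0502 for TIMELESS and 0.114 for EXO1. Over all 30 genes the median difference was 0.28 against 0.01 for all probe sets, 25 were positive, and 12 were higher and 0 lower at an unadjusted p under 0.05, against 8.56% and 7.33% of all probe sets. Medians by role ran from -0.01 for mismatch repair over 0.22 for base excision and nucleotide excision repair to 0.47 for homologous recombination. FANCG, the 1 Fanconi core gene measured, was at 0.49. Just outside the adjusted threshold lay CHEK1 at 0.61 (adjusted p = 0.0528) and BRCA1 at 0.60 (adjusted p = 0.0651). A second CHEK1 probe set gave 0.59 (adjusted p = 0.0583).

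DDB2 encodes the ultraviolet damage sensor of nucleotide excision repair. Its signal was 9.91 and 9.63 in R5020-treated PR-A K388R cells, against 9.31 and 9.46 with vehicle. WT PR-A cells had 8.10 and 8.35 with R5020, against 8.72 and 8.57 with vehicle, and T47D-Y cells had 9.45 and 9.48. All 4 WT PR-A arrays thus lay below the other 6, and R5020 arrays of the 2 lines stood on opposite sides of their vehicle arrays. Neither response of DDB2 was called on its own. EXO1 signal was 8.16 and 8.21 in R5020-treated PR-A K388R cells, against 7.82 and 7.69 with vehicle. The WT PR-A line had EXO1 at 7.48 and 7.63 with R5020, against 7.81 and 7.69 with vehicle, and T47D-Y cells had 7.62 and 7.67. The treated mutant arrays stood above the rest. Leaving out 1 array at a time ended the call of EXO1 in 10 of 10 cases (adjusted p 0.0536 to 0.145), of DDB2 in 8 of 10, all but the second R5020 replicate of each line (0.0431 to 0.156), and of TIMELESS in 1 of 10, the WT PR-A vehicle replicate 1 array (0.054).

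**Figure D2:**
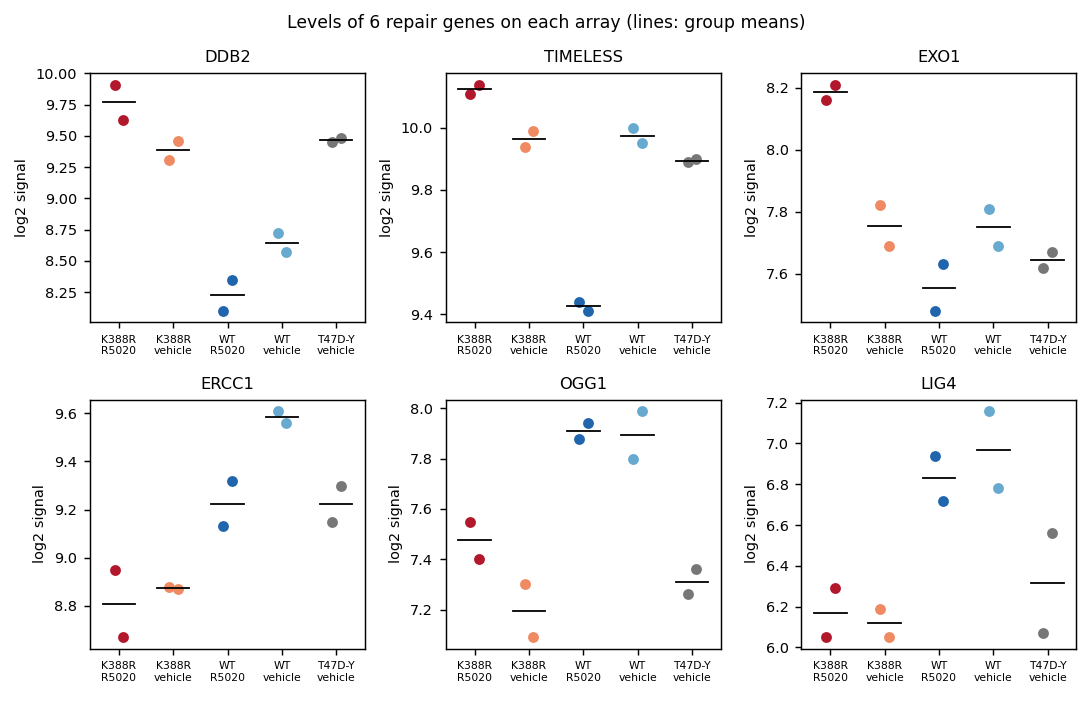
Log2 signal (vertical axes, which differ between panels and do not start at 0) of 6 repair genes on each of the 10 arrays; points are arrays and lines the means of 2. DDB2 is lower on the 4 WT PR-A arrays than on the other 6, TIMELESS is low only on the R5020-treated WT PR-A arrays, and EXO1 is highest on the R5020-treated PR-A K388R arrays.

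The other recombination genes followed one pattern of signs, with a positive change in PR-A K388R cells and a negative one in WT PR-A cells. RAD51C, a paralog of the recombinase, was 8.93 and 9.15 in R5020-treated PR-A K388R cells, against 8.61 and 8.76 with vehicle. The WT PR-A line had RAD51C at 8.72 and 8.70 with R5020, against 8.86 and 8.73 with vehicle, and T47D-Y cells had 8.71 and 8.49. RAD54L, a motor protein that drives strand invasion, had changes of 0.35 in PR-A K388R and -0.24 in WT PR-A cells. RAD51AP1, which stimulates the recombinase, had 0.22 and -0.25, and BARD1, the partner of BRCA1, had 0.05 and -0.29, in the same order of lines. None of these 4 genes was called in any comparison.

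CHEK1 signal was 9.33 and 9.27 in R5020-treated PR-A K388R cells, against 8.77 and 8.96 with vehicle. With WT PR-A it was 9.0 and 9.11 after R5020, against 9.26 and 9.18 with vehicle, and T47D-Y cells had 9.0 and 8.85. The R5020 arrays thus lay above the vehicle arrays in the mutant line and below them in the WT line. MRE11 lay below its vehicle arrays in both lines, at 8.53 and 8.65 with R5020 against 8.76 and 8.72 with vehicle in PR-A K388R cells, and at 8.85 and 8.77 against 9.18 and 9.16 in WT PR-A cells. ATM, the kinase activated at breaks, was dim, at 4.98 and 5.13 in R5020-treated PR-A K388R cells and between 4.65 and 4.92 on the other 8 arrays. By its other probe sets, which were dimmer, the treated mutant arrays did not both lie above all others. One read 4.38 and 4.18 there, against 4.27 and 4.43 in T47D-Y cells. Another read 2.69 and 2.83, against 2.62 and 2.70 in T47D-Y cells.

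By the brightest probe set, ERCC3 and MPG passed the adjusted p at any fold in WT PR-A cells among excision repair genes other than DDB2, and 0 did in PR-A K388R cells. ERCC3 was 8.03 and 7.99 in R5020-treated WT PR-A cells, against 8.44 and 8.38 with vehicle, while the mutant line had 8.05 and 8.13 with R5020 and 8.07 and 7.96 with vehicle. MPG was 8.49 and 8.52 in R5020-treated WT PR-A cells, against 8.98 and 8.89 with vehicle, while the mutant line had 8.69 and 8.62 with R5020 and 8.77 and 8.71 with vehicle. ERCC3 arrays thus overlapped between treatments in the mutant line, and MPG arrays differed by less there than in the WT line. ERCC5 was at -0.34 in PR-A K388R and -0.30 in WT PR-A cells, RAD23B at -0.17 and -0.31, and LIG3, the ligase of nick repair, at -0.23 and -0.28. Another of the 4 LIG3 probe sets had -0.42 in PR-A K388R (adjusted p = 0.0469; blocked adjusted p = 0.144) and -0.39 in WT PR-A cells (adjusted p = 0.0236; blocked adjusted p = 0.0716). TDG had positive values in both lines by its brighter probe set, 0.24 and 0.17. UNG, which removes uracil, had 0.04 and -0.14, XRCC1, the scaffold of nick repair, 0.11 and -0.15, and XPA, a verifier of lesions, 0.02 and 0.04. In mismatch repair, MSH6 and MSH3, which recognise mismatches, had 0.01 and -0.17 with PR-A K388R, against -0.06 and 0.03 with WT PR-A, and PMS1 had -0.07 and -0.06. XRCC4, the partner of LIG4, had 0.13 and -0.20. By another probe set, TDG had a mean of 6.93 with R5020 against 6.97 with vehicle in PR-A K388R cells. In WT PR-A cells it had 7.34 against 6.97. The other XRCC4 probe set had 5.35 against 5.43, and 5.31 against 5.56, in the same order of lines. That of RAD23B had 10.38 against 10.61, and 10.34 against 10.40. The other probe sets of MSH6 and PMS1 were dim and differed in sign from the brightest in at least 1 line.

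Proliferation genes were measured beside the recombination genes. In PR-A K388R cells R5020 called 1.19% of all probe sets higher and 0.562% lower. Of 19 proliferation genes it called 4 higher and 0 lower, with a median change of 0.39. These were RRM2, a subunit of ribonucleotide reductase, at 0.90 (adjusted p = 0.00527), PLK1, a mitotic kinase, at 0.71 (0.00844), E2F1, the S phase transcription factor, at 0.64 (0.0181), and FOXM1, a factor for mitotic genes, at 0.59 (0.0377; blocked adjusted p = 0.0873). Leaving out single arrays ended the calls of PLK1 in 2 of 10 cases (PR-A K388R vehicle replicate 1, 0.0633, and R5020 replicate 2, 0.0644), of E2F1 in 4 (up to 0.115) and of FOXM1 in 7 (up to 0.184). R5020 called 0 of 19 in WT PR-A cells, also with the block, with a median of -0.10. At an unadjusted p under 0.05, 0 were higher and 3 lower there, against 15 higher and 0 lower for PR-A K388R. The shares of all probe sets at that p were 11% higher and 11.7% lower for WT PR-A, and 8.54% and 6.55% for PR-A K388R. The mean over the 19 genes was 10.14 and 10.16 in R5020-treated PR-A K388R cells, against 9.71 and 9.75 with vehicle, 9.66 and 9.83 in R5020-treated WT PR-A cells, against 9.93 and 9.81 with vehicle, and 9.94 and 9.83 in T47D-Y cells. The mean over the 7 recombination genes was 8.46 and 8.50 in R5020-treated PR-A K388R cells, against 8.16 and 8.15 with vehicle. The WT PR-A line had 7.98 and 8.14 with R5020, against 8.30 and 8.17 with vehicle, and T47D-Y cells had 8.18 and 8.12. Both groups of genes were thus highest on the R5020-treated PR-A K388R arrays. With vehicle, 1 of 19 proliferation genes was called lower in PR-A K388R than in WT PR-A cells and 0 higher, against 4.99% and 2.81% of all probe sets. This was RRM2, at 10.23 and 10.17 against 10.81 and 10.77. Its call ended with quantile normalization and with unmoderated contrasts. Against T47D-Y, vehicle-treated PR-A K388R cells had 0 of 19 higher and 7 lower at an unadjusted p under 0.05, where 14.0% and 11.6% of all probe sets were. AURKA was called lower there (-0.72), also with the block but not with unmoderated contrasts. Vehicle-treated WT PR-A cells had 1 higher and 3 lower, against 12.5% and 12.4%, and 0 called. With R5020, CDK1, PLK1, CCNE2 and RRM1 were called higher in PR-A K388R than in WT PR-A cells, 4 of 19 against 3.38% of all probe sets. What part proliferation has in the values of the repair genes was not tested.

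**Figure D3:**
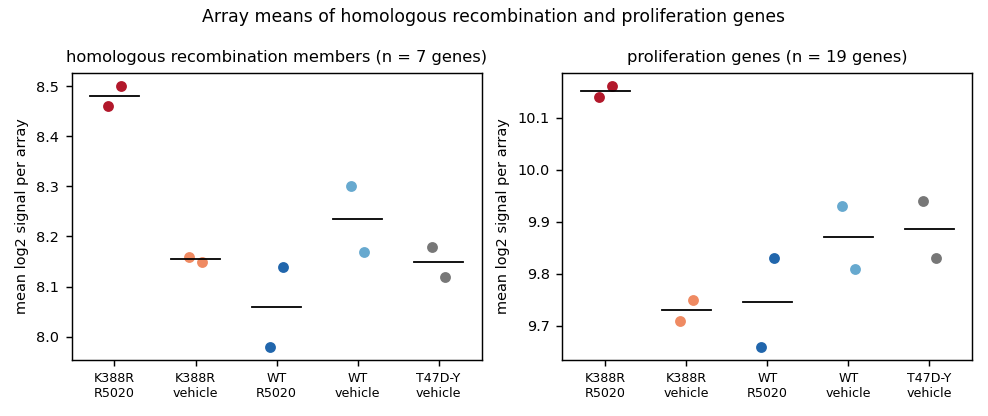
Mean log2 signal per array (vertical axes, which do not start at 0) of the 7 measured homologous recombination genes (left) and of 19 proliferation genes (right) in the 5 groups; points are arrays and lines the means of 2. In both panels the R5020-treated PR-A K388R arrays are highest, at 8.46 and 8.50 on the left and at 10.14 and 10.16 on the right.

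With vehicle alone, PR-A K388R cells differed from WT PR-A cells in 4 of 30 repair genes, 1 higher and 3 lower, against 2.81% of all probe sets higher and 4.99% lower. DDB2 was higher by 0.74 (SE 0.13, adjusted p = 0.00398, 1.67-fold). Lower were LIG4, the ligase that seals ends in end joining, at -0.85 (SE 0.18, adjusted p = 0.0128), ERCC1, the partner of a nuclease that cuts 5′ of the lesion, at -0.71 (SE 0.11, adjusted p = 0.00284), and OGG1, the glycosylase for oxidised guanine, at -0.70 (SE 0.11, adjusted p = 0.0026). These 4 calls stood with the block. Leaving out WT PR-A vehicle replicate 1 or PR-A K388R vehicle replicate 2 ended that of LIG4, at 0.0978 and 0.075. At any fold 2 genes were higher and 7 lower, against 6.69% and 8.46% of all probe sets, the lower ones also including TDG, a thymine glycosylase, at -0.50 (adjusted p = 0.0216), and MRE11 at -0.43 (adjusted p = 0.00808). With the block 1 was higher and 5 lower, against 4.12% and 6.3% of all probe sets. By its other probe set TDG had a mean of 6.97 in both vehicle-treated receptor lines. The median over the repair genes was -0.07, against 0.05 for all probe sets.

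ERCC1 signal was 8.88 and 8.87 in vehicle-treated PR-A K388R cells, against 9.61 and 9.56 in WT PR-A cells, while T47D-Y cells had 9.15 and 9.30. With R5020 it was 8.95 and 8.67 in PR-A K388R cells, against 9.13 and 9.32 in WT PR-A cells. With vehicle, T47D-Y cells thus lay between both receptor lines, and with R5020 the WT PR-A arrays enclosed them. The other ERCC1 probe set had the same order of lines, at 7.97 and 8.01 in vehicle-treated PR-A K388R cells, against 8.93 and 8.87 in WT PR-A cells, a difference of -0.91 (adjusted p = 2e-04). LIG4 signal was 6.19 and 6.05 in vehicle-treated PR-A K388R cells, against 7.16 and 6.78 in WT PR-A cells, while T47D-Y cells had 6.07 and 6.56. The T47D-Y arrays stood apart from each other for this gene.

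OGG1 gave different values by probe set. Its brighter probe set read 7.30 and 7.09 in vehicle-treated PR-A K388R cells, against 7.80 and 7.99 in WT PR-A cells, while T47D-Y cells had 7.26 and 7.36. Its other probe set read 6.62 and 6.36 in PR-A K388R cells, against 6.47 and 6.38 in WT PR-A cells, while T47D-Y cells had 6.65 and 6.86. The second thus differed by 0.06 (adjusted p = 0.757) between the receptor lines where the first differed by -0.70. NBN, a subunit of the break sensor, had 0.31 by its brightest probe set (adjusted p = 0.0421; blocked adjusted p = 0.114), and -0.58 (adjusted p = 0.0132) and -0.39 (adjusted p = 0.06) by the others. The value of the brightest was above 0.05 without 8 of 10 single arrays (adjusted p up to 0.18). Which transcripts these probe sets report was not tested.

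Against T47D-Y cells, vehicle-treated PR-A K388R cells had 0 of 30 repair genes called, where 1.2% of all probe sets were called higher and 2.77% lower. Their differences ran from -0.35 for ERCC1 to 0.31 for NBN, and 1 gene was higher and 5 lower at an unadjusted p under 0.05, against 14.0% and 11.6% of all probe sets. The blocked fit, which called 3.36% of all probe sets, and contrasts without moderated variances gave 0 of 30 too. Vehicle-treated WT PR-A cells had 2 of 30 called against T47D-Y cells, where 3.87% of all probe sets were called higher and 3.65% lower. DDB2 was lower at -0.82 (SE 0.13, adjusted p = 0.00241, 1.76-fold), a call that stood with the block and without any single array. LIG4 was higher by 0.65 (SE 0.18, adjusted p = 0.0439), a call that ended with the block (blocked adjusted p = 0.0653) and without WT PR-A vehicle replicate 1 (0.257), T47D-Y replicate 1 (0.265) or either PR-A K388R vehicle array (0.0534). OGG1 was 0.58 higher by its brighter probe set (adjusted p = 0.00699) and stood just under 1.5-fold, while its other probe set gave -0.33 (adjusted p = 0.0926). A dim LIG3 probe set, at percentile 20.0, was called higher in WT PR-A cells, also with the block, with means of 3.43 against 2.84. The brightest LIG3 probe set had 8.47 against 8.44. Both comparisons share the T47D-Y arrays, and the difference between them is the comparison of the vehicle-treated receptor lines above.

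**Figure D4:**
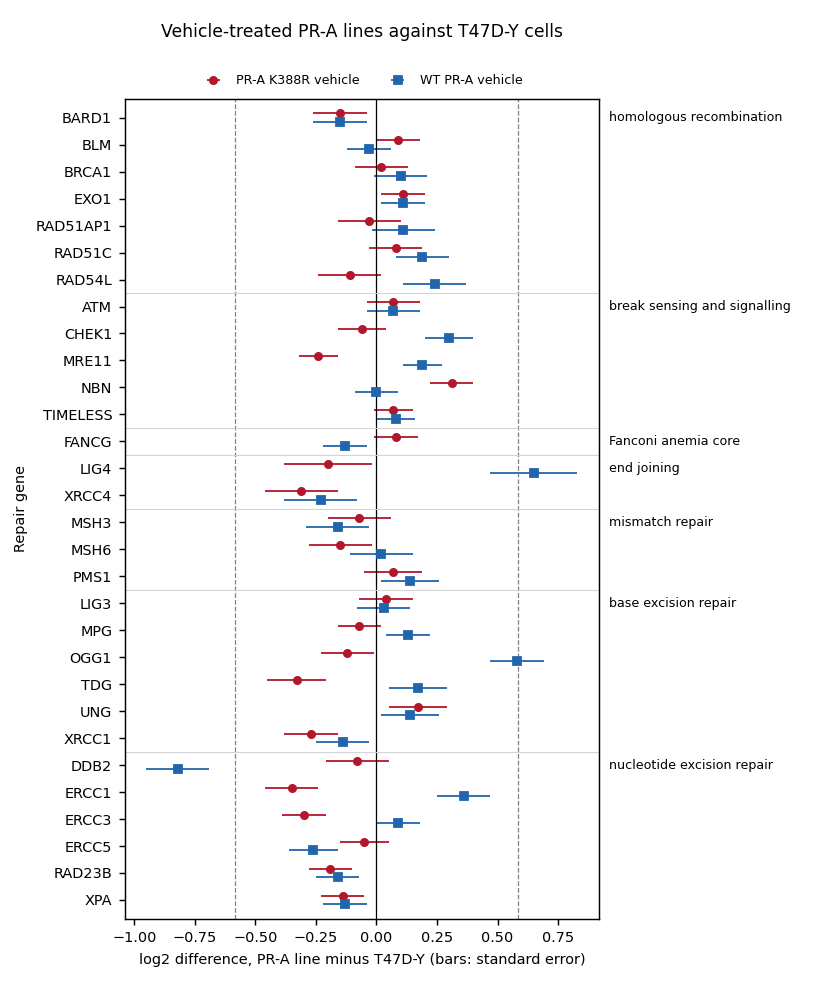
The log2 difference (horizontal axis) of the 30 measured repair genes between a vehicle-treated receptor line and vehicle-treated T47D-Y cells, for PR-A K388R (red circles) and WT PR-A (blue squares); bars are standard errors and dashed lines mark 1.5-fold. DDB2 at -0.82 and LIG4 at 0.65 in WT PR-A cells lie outside the dashed lines, and OGG1 at 0.58 lies beside one.

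A comparison of both R5020-treated receptor lines was added after the values were seen. PR-A K388R cells had 4 of 30 repair genes called higher and 1 lower than WT PR-A cells, against 3.38% of all probe sets higher and 5.81% lower. DDB2 was higher by 1.54 (SE 0.13, adjusted p = 5.6e-05, 2.91-fold), TIMELESS by 0.70 (SE 0.08, adjusted p = 0.000306), FANCG by 0.70 (SE 0.09, adjusted p = 0.000684) and EXO1 by 0.63 (SE 0.09, adjusted p = 0.00158). LIG4 was lower at -0.66 (SE 0.18, adjusted p = 0.0319). ERCC1 was at -0.41 by its brighter probe set (adjusted p = 0.0326; blocked adjusted p = 0.068) and was called lower by the other, at -0.70 (adjusted p = 0.000699; blocked adjusted p = 0.00282). FANCG signal was 9.19 and 9.04 in R5020-treated PR-A K388R cells, against 8.34 and 8.48 in R5020-treated WT PR-A cells. With vehicle it was 8.98 and 9.01 in PR-A K388R cells, against 8.81 and 8.76 in WT PR-A cells, and T47D-Y cells had 8.90 and 8.93. The R5020-treated WT PR-A arrays were thus the lowest for FANCG, as they were for TIMELESS. The 5 calls by the brightest probe sets stood with the block. EXO1 fell under 1.5-fold without WT PR-A R5020 replicate 1 (0.55), and LIG4 lost its call without either WT PR-A R5020 array or PR-A K388R R5020 replicate 1 (adjusted p 0.0563 to 0.171). BLM at 0.58 (adjusted p = 0.00167, 1.49-fold) lay just under the fold threshold. BRCA1 was at 0.52 (adjusted p = 0.00786), and lost the adjusted p without PR-A K388R R5020 replicate 2. At any fold 6 genes were higher and 4 lower, against 9.91% and 10.0% of all probe sets. The lower ones included OGG1 at -0.44 (adjusted p = 0.0219; blocked 0.0504) and TDG at -0.43 (adjusted p = 0.0343; blocked 0.0677). The other OGG1 probe set gave 0.43 (adjusted p = 0.0259; blocked 0.0571).

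Among checkpoint and p53 pathway genes outside the list, R5020 called 4 of 15 higher and 0 lower with WT PR-A. Over all probe sets 3.71% were called higher there. The mutant line had 0 of 15 called in either direction, 0 also with the block, where 1.19% of all probe sets were called higher. Medians over the 15 genes had the opposite order, at -0.10 for the WT line and 0.24 for the mutant. Counts at an unadjusted p under 0.05 were 5 higher and 2 lower for the WT line, against 7 and 0 for the mutant. Of all probe sets, 11% were higher and 11.7% lower at that p in the WT line, and 8.54% and 6.55% in the mutant. For the difference of both responses the median was 0.26. At that p 4 were higher and 2 lower, against 8.56% and 7.33% of all probe sets. The 4 calls thus stand for single genes and not for the 15 as a set. With WT PR-A, GADD45G and GADD45A, which bind PCNA and stress kinases, changed by 1.20 (adjusted p = 0.000146) and 0.93 (0.00272), the death receptor FAS by 1.29 (0.00478), and MDM2, the ligase that degrades p53, by 0.74 (0.00225), in a dim probe set at percentile 42.5. In PR-A K388R cells the same genes had 0.35, 0.18, 0.93 and 0.39, with adjusted p between 0.071 and 0.636. The difference of both responses was called for GADD45G alone, at -0.85 (adjusted p = 0.0249; blocked adjusted p = 0.0614). That call ended in 6 of 10 cases without 1 array (up to 0.086), and with the block 0 of 15 were called. With vehicle, GADD45A signal was 6.60 and 6.33 in PR-A K388R cells, against 8.09 and 8.26 in WT PR-A cells, while T47D-Y cells had 6.74 and 6.47. GADD45A was thus high only in the WT PR-A line, and the difference of PR-A K388R against WT PR-A was -1.71 (adjusted p = 8.56e-05). HUS1, a subunit of the sliding clamp that senses damage, differed in the same direction by -0.90 (adjusted p = 0.000347). HUS1 signal was 8.22 and 8.36 in PR-A K388R cells, against 9.21 and 9.17 in WT PR-A cells, while both T47D-Y arrays had 8.44.

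**Figure D5:**
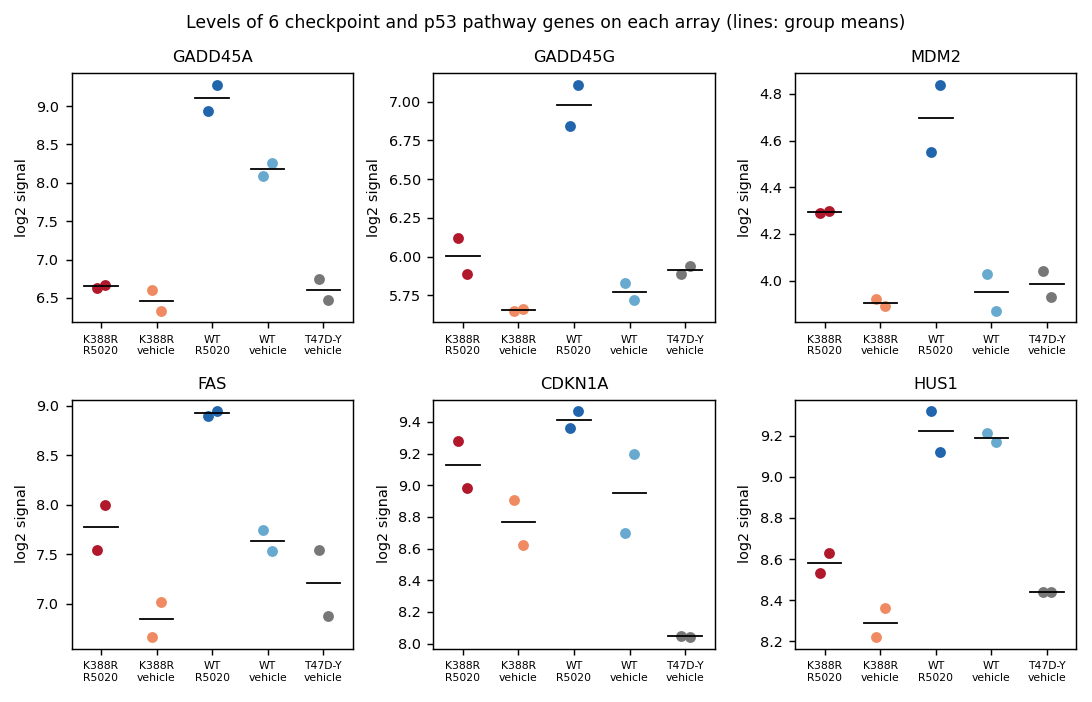
Log2 signal (vertical axes, which differ between panels and do not start at 0) of 6 checkpoint and p53 pathway genes outside the repair list on each array; points are arrays and lines the means of 2. GADD45A is above 8 on the 4 WT PR-A arrays and below 7 on the other 6, and MDM2 and GADD45G are highest on the R5020-treated WT PR-A arrays.

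Further repair genes outside the list were counted by role. Of 16 other break repair and Fanconi genes, R5020 in PR-A K388R cells called MDC1, a scaffold at breaks, at 0.62 (adjusted p = 0.0439; blocked adjusted p = 0.0939; lost without 8 of 10 single arrays, up to 0.225), and 0 of 16 in the WT PR-A line, 0 also with the block (1 higher and 3 lower at an unadjusted p under 0.05). The difference of the responses was called for H2AX, the histone marked at breaks, at 0.71 (adjusted p = 0.0121; blocked adjusted p = 0.0516), and ended without WT PR-A vehicle replicate 1 (0.053) or R5020 replicate 1 (0.051). Of 13 other excision and mismatch genes 0 were called in either R5020 response, 0 also with the block (at an unadjusted p under 0.05, 2 higher with PR-A K388R and 4 lower with WT PR-A). Beside these counts and those of the 16 genes, 8.54% of all probe sets were higher and 6.55% lower at that p with PR-A K388R. With WT PR-A 11% were higher and 11.7% lower. With vehicle PARP2, a sensor of nicks, was higher by 0.73 in the WT PR-A line against T47D-Y (adjusted p = 0.000275). Also with vehicle, MNAT1, a TFIIH kinase subunit, was lower in PR-A K388R than in WT PR-A cells at -0.64 (adjusted p = 0.00792), a call lost without the vehicle replicate 1 array of either line (0.0683 and 0.0545). Of 6 translesion and post-replication genes, UBE2A alone was called in an R5020 response. With R5020, UBE2A and UBE2B were called lower in PR-A K388R than in WT PR-A cells, also with the block, against 5.81% of all probe sets. UBE2B signal was 9.41 and 9.51 in R5020-treated PR-A K388R cells, against 10.09 and 10.13 in R5020-treated WT PR-A cells. UBE2A encodes a conjugating enzyme that ubiquitinates PCNA at stalled forks. UBE2A signal was 9.95 and 10.03 in R5020-treated PR-A K388R cells, against 9.71 and 9.66 with vehicle. UBE2A in WT PR-A cells was 10.92 and 11.03 with R5020, against 9.90 and 9.80 with vehicle, a change of 1.13 (adjusted p = 4.9e-05). The difference of the responses was -0.82 (adjusted p = 0.00969), and this call stood with the block (0.0376).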

How the data were processed

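RNA from T47D-Y cells and from both receptor lines was hybridised to 10 Affymetrix U133 Plus 2 arrays. The deposited values are log2 signals per probe set that the authors had normalized in Partek Genomics Suite; the normalization method and the array software are not given in the sources used here, and such steps set how well arrays can be compared. The labels name DMEM with charcoal-stripped serum and PicoPure extraction, and the study's methods name MEM and a different kit. No further normalization was applied. The table holds 16376 probe sets, a part of the array, and 0 columns of sample values were left unused. Of the probe sets, 12547 carried 1 gene symbol in the platform annotation (8904 genes), 457 carried several and named no gene, and 3372 were unnamed here. Limits of precision come from the 2 arrays of a group.

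A model with a mean for each of the 5 groups was fitted to the 10 arrays (limma 3.58.1 under R 4.3.3, variances moderated), and p-values were adjusted by the Benjamini-Hochberg method over all 16376 probe sets. All tests are two-sided. Values on each array are given for repair genes called in a comparison, largest change first. Genes of other lists are named from those called, and not every called one is named. BLM, BRCA1, CHEK1, the genes past the adjusted p at any fold and the per-array values of genes under the threshold were chosen after the values were seen. Members and lists were chosen with earlier results of these data known. Pairing by replicate number was checked: in the deposited values the differences of replicate 2 minus replicate 1 sum to 0 over the 5 groups (largest absolute sum 3e-04, against medians of 0.228 to 0.255 with the numbers of 1 group exchanged). The number had been removed before deposit, so the fit without a block counts 5 residual degrees of freedom where 4 are independent. Alternatives were the replicate block, quantile normalization, centring on array medians, contrasts without moderated variances, an intensity trend, leaving out the dimmest 40% of probe sets, other fold or p thresholds and leaving out each array. The comparison of both R5020-treated lines, the background without dim probe sets, the counts over all 8 other arrays and the alternatives for genes outside the list were added after the values were seen. Fits were tested on simulated data in which 200 probe sets were changed in R5020-treated WT PR-A arrays. Calls recovered 33% of 1.5-fold, 90% of 2-fold and 100% of 3-fold changes, with 3 false calls. Changes of 1.5-fold were thus often missed, and the lack of a call does not show that a gene was unchanged. A planted change of 1.5-fold lies on the fold threshold itself, which alone ends part of these calls. The simulated arrays had no replicate effect removed, so the false calls do not cover that feature of the deposited values. Promoters and coordinates are from RefSeq tables (GRCh38.p14). Tables and figures were made with Python 3.11.15, pandas 2.3.3 and matplotlib 3.10.9.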

Additional observations from a re-analysis of the deposited data

Results flagged for a closer look

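The R5020 response differed between PR-A K388R and WT PR-A cells, by a test of the difference itself (limma, adjusted over all probe sets), in 10 of the genes described. The difference (PR-A K388R minus WT PR-A, log2) was 0.80 for DDB2, 0.71 for TIMELESS and 0.63 for EXO1 among the listed repair genes. Outside that list it was 0.71 for H2AX, 0.98 for RRM2, 0.79 for PLK1, 0.76 for E2F1 and 0.85 for the luminal marker FOXA1, each higher in the mutant line. It was -0.85 for GADD45G and -0.82 for UBE2A, both lower in the mutant line. With the replicate block the difference kept its call for UBE2A (adjusted p = 0.0376) and RRM2 (0.0431). The blocked p of the other 8 lay between 0.0502 for TIMELESS and 0.114 for EXO1. Leaving out 1 array ended the difference call of PLK1 in 6 of 10 cases (adjusted p up to 0.0904), of E2F1 in 9 (up to 0.113), of FOXA1 in 7 (up to 0.0956), of RRM2 in 5 (up to 0.0643) and of UBE2A in 0 (0.0192 to 0.0437). Unmoderated contrasts also ended that of RRM2 (0.0859).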

How the results depend on the processing

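No called result turned direction under any alternative run. The median over the 7 recombination genes, which were not called, turned sign: with vehicle it was -0.08 for PR-A K388R against WT PR-A cells (2 positive, 5 negative) and 0.01 with quantile normalization (4 and 3), and 0.02 for PR-A K388R against T47D-Y cells (4 and 3) and -0.05 with centring (3 and 4). Counts of repair genes called (of 30) moved as follows. With the replicate block, the difference of responses gave 0 in place of 3 and WT PR-A against T47D-Y gave 1 in place of 2; the block changed the count of calls in no other comparison. WT PR-A against T47D-Y also gave 1 with quantile normalization, with centring and with unmoderated contrasts. The difference of responses gave 1 with unmoderated contrasts, 5 with an intensity trend, 5 without dim probe sets and 6 by unadjusted p. With no fold threshold, the R5020 response gave 2 in PR-A K388R and 5 in WT PR-A cells, the vehicle-treated receptor lines 9 in place of 4 and the R5020-treated ones 10 in place of 5. At a fold of 2 or more, the difference of responses, WT PR-A against T47D-Y and the vehicle-treated receptor lines gave 0, and the R5020-treated lines 1. Leaving out 1 array gave 0 to 2 for the difference of responses (0 without WT PR-A vehicle replicate 1), 1 to 3 for WT PR-A against T47D-Y, 3 to 4 for the vehicle-treated and 3 to 7 for the R5020-treated receptor lines, and 0 in both R5020 responses and in PR-A K388R against T47D-Y. Of the 14 called results of listed genes, 4 fell below the threshold with the block, 2 with quantile normalization, 3 with centring, 5 with unmoderated contrasts and 13 at a fold of 2; of 70 further results, 21, 10, 6, 27 and 57 did. The median over the repair genes for PR-A K388R against WT PR-A with vehicle was -0.07, -0.12 with centring and -0.00 with quantile normalization. Precision was limited by 2 arrays a group: the SE of a difference between groups had a median of 0.11 over the repair genes, and that of the difference of responses 0.16.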
